A study of Mus musculus with 18 samples.

Results

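The regions described here are the ATAC-seq peaks of lung endothelial cells (ECs) at 10 genes of the hypoxia response: Epas1, Hif1a, Hif3a, Arnt, Egln1, Egln3, Vhl, Bnip3, Slc2a1 and Adm. Peaks of all 18 samples on chromosomes 1 to 19, X and Y that shared at least 1 bp were joined into regions, and a region counted when 2 or more samples contributed to it. A region belonged to one of the 10 genes when the nearest RefSeq transcription start site (TSS) to its midpoint was a TSS of that gene, or when the midpoint lay within the gene. These rules gave 68 of the 47338 consensus regions. The assignment is by position only and does not show which gene a region acts on. The samples came from FVB mice carrying a Col1α1-GFP reporter, which marks collagen-producing cells, and each list is from 1 mouse. The study used both sexes, at 2 months of age (young) or 18 months (aged). Lungs were taken 30 days after bleomycin, a DNA-damaging drug that injures the lung, at 1 U/kg into the trachea (5 Aged Bleo and 4 Young Bleo mice), or after sham treatment with PBS (4 Aged Sham and 5 Young Sham mice). ECs were sorted as CD31+ cells negative for CD45, EpCAM and GFP, so all groups share the reporter and the sort.

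Cells sense oxygen through the hypoxia-inducible factors (HIFs), which pair an oxygen-regulated α subunit with the stable β subunit ARNT. HIF-1α is encoded by Hif1a, HIF-2α, the α subunit best known from endothelium, by Epas1, and HIF-3α by Hif3a. When oxygen is present, prolyl hydroxylases such as PHD2 (Egln1) and PHD3 (Egln3) mark the α subunits, and the VHL protein then directs them to degradation. When oxygen is low, the HIF dimers bind short sites with the core ACGTG or GCGTG and raise genes for glucose uptake (Slc2a1, glucose transporter GLUT1), mitophagy (Bnip3) and vascular signalling (Adm, the peptide adrenomedullin), together with Egln3 itself.

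ATAC-seq cuts open DNA with the Tn5 transposase, so that fragments pile up at accessible sites. The lists held 21050 to 40883 peaks, and a median peak rested on 25 to 33 fragments at its summit. Fold enrichment is the fragments at a summit over those expected from its surroundings, with 1 added to each, and is not scaled between lists. Samples were therefore compared by presence of a peak and by the within-list percentile, the rank of a region's fold enrichment among the 17432 regions with a peak in all 18 samples, where 100 is the strongest. The promoters of 6 of 10 endothelial marker genes carried a peak in all 18 samples, and those of Tek and Emcn in none. None of 6 leukocyte markers had a promoter peak in any sample. Among 6 epithelial markers Foxj1 had one in all samples, and among 8 fibroblast, mural and mesothelial markers Pdgfra did, while the others, with Sftpc, Epcam and Col1a1 among them, were at 0. File names place all Young Sham samples and Young Bleo 4 on lane 8, Young Bleo 1 to 3 and Aged Sham 1 to 3 on lane 7, and Aged Sham 4 and all Aged Bleo samples on lane 6. No lane held both Young Sham and aged samples, so each comparison of aged samples with Young Sham is also one between lanes. Both ages shared lane 7 only as Young Bleo and Aged Sham, which differ in treatment too. Comparisons of bleomycin with sham within an age are largely between lanes as well. Their groups shared a lane only through Young Bleo 4 on lane 8 and Aged Sham 4 on lane 6. A fit with lane as a term was not run.

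A sample had a peak in between 28 and 62 of the 68 regions. The mean share of the 68 regions with a peak was 67.1% ± 8.54 (SD, n = 5) in Young Sham and 74.3% ± 8.56 (n = 4) in Young Bleo. It was 53.3% ± 6.51 (n = 4) in Aged Sham and 65.0% ± 21.9 (n = 5) in Aged Bleo. Over all consensus regions the shares were 71.9% ± 6.65, 75.1% ± 5.86, 59.2% ± 7.08 and 63.0% ± 15.5 in the same order. In each group the mean share of the hypoxia-response regions lay within 1 SD of that of all regions, and Aged Bleo spread widest on both measures. Aged Bleo 2, with 40883 peaks, had the most hypoxia-response regions of any sample, and Aged Bleo 4, with 21050 peaks, the fewest.

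**Figure D1:**
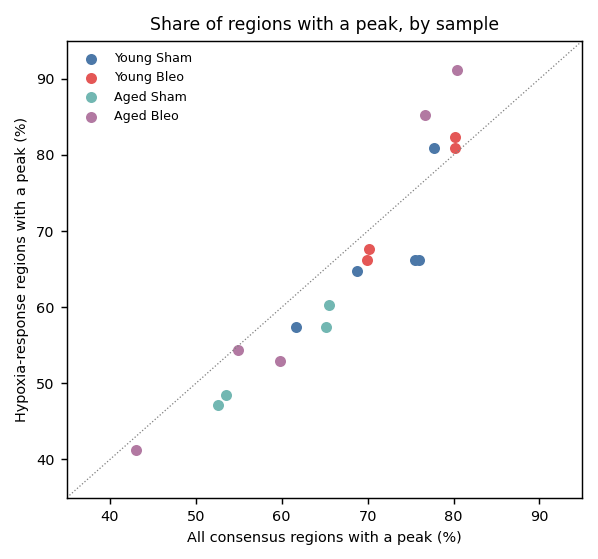
Share of the 68 hypoxia-response regions with a peak (vertical axis, %) against the share of all 47338 consensus regions with a peak (horizontal axis, %), 1 point per sample, coloured by group. The dotted line marks equal shares. The points lie near the line, from Aged Bleo 4 at 43.0% of all regions and 41.2% of the hypoxia-response regions to Aged Bleo 2 at 80.4% and 91.2%.

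Most of the 68 regions lay away from promoters. By midpoint 36 were intronic, 22 intergenic, 5 in a promoter (from 1000 bp before a TSS to 100 bp after it), 4 in a UTR and 1 in an exon. Introns held 52.9% of them against 36.9% of all consensus regions, and promoters 7.35% against 21.3%. Epas1 had by far the most with 27, followed by Hif1a and Egln3 with 10 each, Adm with 6, Slc2a1 with 5, Hif3a with 4 and Bnip3 with 3. Arnt, Egln1 and Vhl had 1 region each, at the TSS. Among 17229 genes with a region the median was 2, and 8 genes had as many as Epas1 or more. Of the 68 regions, 25 (36.8%) carried a peak in all 18 samples, the same percentage as over all consensus regions (36.8%), and 27 were found in 2 to 8 samples.

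**Figure D2:**
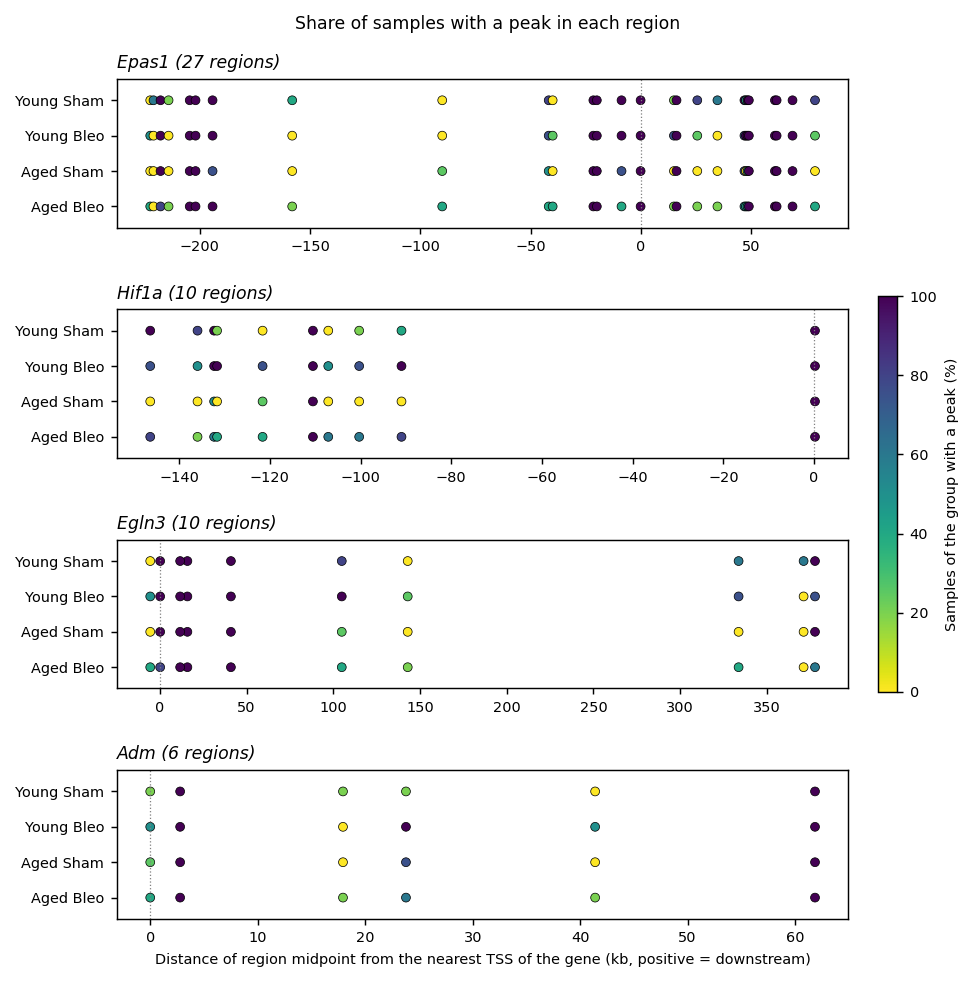
Regions of 4 of the genes (Epas1, Hif1a, Egln3 and Adm) by the distance of their midpoint from the nearest TSS of the gene (horizontal axis, kb, positive downstream), with 1 row of points per group coloured by the percentage of its samples with a peak. Hif1a has a single region at its TSS and 9 regions between 146.4 and 91.0 kb upstream, several of them without a peak in any Aged Sham sample.

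For each region, the numbers of samples with a peak were compared by Fisher's exact test, two-sided. In Aged Sham against Young Sham, 4 of the 68 regions were called less often at an unadjusted p of at most 0.05 and 0 more often, against 4.90% and 0.264% of all regions. In Young Bleo against Young Sham, 4 were called more often and 0 less often, against 3.98% and 1.96% of all regions. None passed in either direction in Aged Bleo against Young Sham, against 0.201% of all regions higher and 3.01% lower. Against Aged Sham, 2 were called more often and 0 less often in Aged Bleo, against 0.475% and 0.410% of all regions. The share of hypoxia-response regions that passed was 5.88% in each of the first pair of comparisons and 2.94% in the last. These shares are near the background in the comparisons with Young Sham. After Benjamini-Hochberg adjustment over all 47338 regions none of the 68 regions, and no region at all, passed by Fisher's exact test, and the smallest adjusted p of any region was 0.535. When each list was limited to its 21050 strongest peaks, 0 of these 10 calls passed (p from 0.167 to 1), while other regions of the 10 genes did. The share of all regions that passed with such lists is not given here.

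Strength was tested with limma over the 17432 regions common to all samples, of which 25 belonged to the 10 genes. In Young Bleo against Young Sham, 3 of the 25 were stronger and 0 weaker at an adjusted p of at most 0.05, against 1.18% and 1.57% of all tested regions, and all 3 were regions of Egln3. Aged Bleo had 3 stronger regions than Young Sham (at Egln3, Egln1 and Epas1) and 1 weaker one (at Epas1), against 5.75% and 4.81% of all regions. In Aged Sham against Young Sham none of the 25 passed, against 0.620% stronger and 0.591% weaker of all regions. None of the 25 passed in Aged Bleo against Aged Sham, where 0.189% and 0.155% of all regions did. The difference of the bleomycin effect between ages passed for none of the 25, against 0.00574% of all regions. Comparisons with Young Sham share those 5 samples. By the exact permutation test over samples, whose smallest possible p is 0.00794 in each of these designs, no region passed after adjustment in any of the 4 comparisons.

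**Figure D3:**
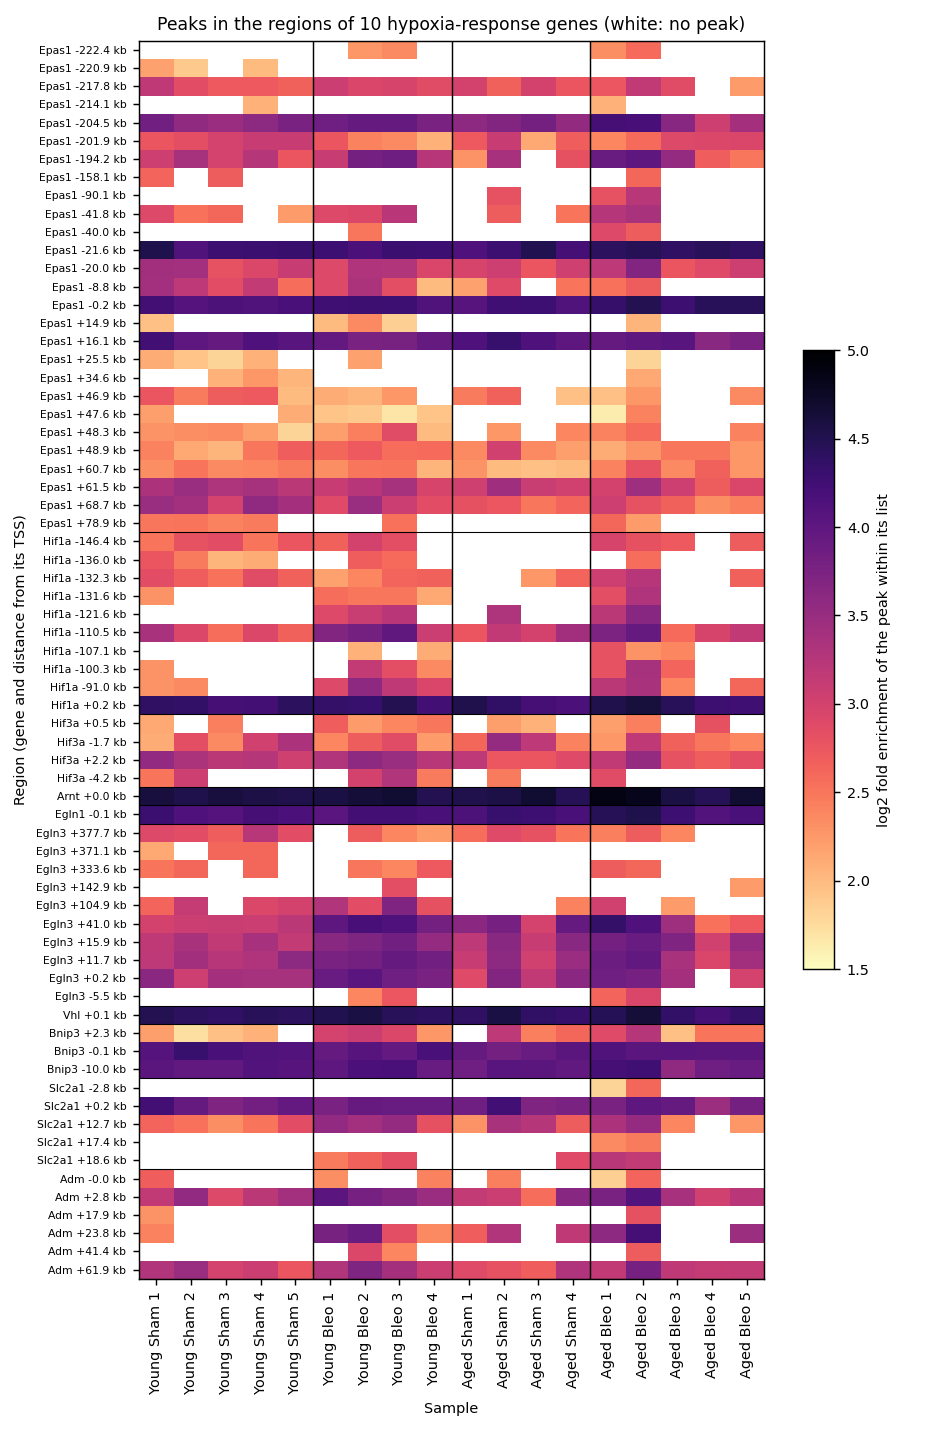
Peaks of the 68 regions (rows, named by gene and distance from its TSS) in the 18 samples (columns), coloured by the log2 fold enrichment of the peak within its own list, which is not scaled between lists, and white where a list has no peak. The TSS regions of Epas1, Hif1a, Arnt, Egln1, Vhl, Bnip3 and Slc2a1 are dark in every sample, and the Egln3 regions from 0.2 to 41.0 kb are darker in the Young Bleo samples than in the Young Sham samples.

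Epas1 (chr17:86753864-86833410, plus strand, GRCm38/mm10 as are all coordinates here) carried regions over about its whole length and far upstream. Of its 27 regions 12 lay in the gene body, and 8 lay in introns of the neighbouring kinase gene Prkce, between 222.4 and 158.1 kb upstream. Of the 27 regions 10 had a peak in all 18 samples. The strongest by median percentile (75.4) was an intergenic region 21.6 kb upstream (chr17:86732020-86732548). Its percentiles were 78.8, 60.7, 77.5, 74.9 and 76.5 in Young Sham, 73.5, 61.3, 67.5 and 74.5 in Young Bleo, 66.4, 67.1, 87.0 and 75.8 in Aged Sham, and 77.7, 69.3, 81.0, 89.0 and 80.7 in Aged Bleo. All groups overlapped there, and the largest difference from Young Sham, that of Aged Bleo, was 5.83 ± 4.64 points (SE, limma adjusted p = 0.443).

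The Epas1 TSS region (chr17:86753131-86754262) was stronger in Aged Bleo. Its percentiles were 60.3, 58.1, 69.1, 62.8 and 68.6 in Young Sham, 73.1, 69.9, 65.8 and 65.4 in Young Bleo, 62.6, 66.1, 75.3 and 69.5 in Aged Sham, and 72.9, 70.8, 75.5, 89.5 and 83.8 in Aged Bleo. Every Aged Bleo value was above every Young Sham value. The difference was 14.7 ± 3.64 points (SE, limma adjusted p = 0.0201), and without Young Sham replicate 2 the adjusted p was 0.0555. Aged Bleo exceeded Aged Sham by 10.1 ± 3.86 points, which did not pass by fold enrichment (limma adjusted p = 0.21). In Aged Bleo, lists of 21050, 26886, 29049, 37595 and 40883 peaks gave 89.5, 83.8, 75.5, 72.9 and 70.8. In Young Sham, lists of 30073, 33331, 36956, 37087 and 38747 peaks gave 68.6, 69.1, 62.8, 58.1 and 60.3. The call also passed with equally long lists, and the part of list length in the difference was not tested. The window of 200 bases around the summit, upstream of the TSS (chr17:86753518-86753717), is shown from the RefSeq genome GRCm38.p6, plus strand, since this is the Epas1 region that rose.
Epas1 TSS region: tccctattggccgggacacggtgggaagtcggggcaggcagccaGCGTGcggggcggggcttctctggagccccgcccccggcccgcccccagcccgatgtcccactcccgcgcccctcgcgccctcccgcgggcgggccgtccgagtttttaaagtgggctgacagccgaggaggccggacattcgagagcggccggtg
Capitals in this and the following sequences mark matches on either strand to the HIF core ACGTG, to the HIF core GCGTG, to CAGGAAG (a core bound by ERG and other ETS factors) or to TGACTCA (an AP-1 site). The Epas1 window holds a single GCGTG.

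An intronic region 68.7 kb into Epas1 (chr17:86822233-86822860) went the other way. Its percentiles were 17.7, 19, 9.2, 29.4 and 24.8 in Young Sham, 6.9, 21.8, 7.1 and 6.0 in Young Bleo, 8.0, 3.7, 2.7 and 3.9 in Aged Sham, and 9.4, 2.5, 4.0, 3.0 and 2.5 in Aged Bleo. All Aged Sham samples and 4 of 5 Aged Bleo samples were below every Young Sham sample. The fall was 15.7 points ± 3.57 (SE, limma adjusted p = 0.0133) in Aged Bleo, and the Aged Sham difference of -15.5 ± 3.79 points did not pass (adjusted p = 0.0572). Aged Bleo and Aged Sham differed by -0.272 ± 3.79 points. The window (chr17:86822543-86822742, plus strand) holds 1 CAGGAAG on the minus strand and neither HIF core.
Epas1 68.7 kb region: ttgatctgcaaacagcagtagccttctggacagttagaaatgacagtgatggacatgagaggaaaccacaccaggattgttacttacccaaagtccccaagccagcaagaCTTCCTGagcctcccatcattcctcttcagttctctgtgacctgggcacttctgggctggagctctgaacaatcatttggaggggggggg

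Peaks at 2 weaker Epas1 regions were found in 4 of 5 Young Sham and 0 of 4 Aged Sham samples (p = 0.0476, Fisher's exact test). The first lies 25.5 kb into the gene in an intron (chr17:86779236-86779538) and was also called in 1 of 4 Young Bleo and 1 of 5 Aged Bleo samples. The second lies in the 3′ UTR, 78.9 kb into the gene (chr17:86832596-86832887), with a peak in 1 Young Bleo and 2 Aged Bleo samples. Their median peaks rested on 19.5 and 18 fragments. Leaving out any 1 of Young Sham replicates 1 to 4 or of the 4 Aged Sham samples raised either p to 0.143. The remaining Epas1 regions ranged from 2 to 18 samples, and none of them passed in any comparison of presence or of strength by fold enrichment.

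Hif1a (chr12:73901324-73947554) was arranged differently, with 1 region at a TSS and 9 regions between 146.4 and 91.0 kb upstream, 4 of them in introns of the kinase gene Prkch. The TSS region (chr12:73907460-73908711) holds a TSS inside the annotated gene, which also has a transcript that starts farther upstream, and had a peak in all samples. Its percentiles were 70.4, 77.6, 73.4, 70.8 and 81.9 in Young Sham, 78.9, 72.3, 80.9 and 72.8 in Young Bleo, 87.5, 73.4, 72.4 and 71.5 in Aged Sham, and 83.6, 78.8, 83.6, 82.7 and 74.6 in Aged Bleo. The groups overlapped, and no difference from Young Sham exceeded 5.85 ± 3.32 points (Aged Bleo, adjusted p = 0.269). The 250 bases before that TSS (chr12:73907617-73907866, plus strand) hold 3 matches to ACGTG, counting both strands.

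The upstream Hif1a regions held 6 of the 10 calls by presence. At 146.4 kb upstream (chr12:73754728-73755158) all 5 Young Sham, 3 of 4 Young Bleo, 0 of 4 Aged Sham and 4 of 5 Aged Bleo samples had a peak. The difference between Aged Sham and Young Sham had p = 0.00794, the smallest that Fisher's exact test can give for 4 against 5 samples, and an adjusted p of 0.786 over all regions. More Aged Bleo than Aged Sham samples had the peak (Fisher's exact p = 0.0476). Fold enrichments were 5.7 to 7.2 in Young Sham and 6.5 to 7.8 in Aged Bleo, on 12 to 21 fragments. At 136.0 kb upstream (chr12:73765149-73765592) 4 Young Sham samples had a peak, against 0 Aged Sham samples, 2 Young Bleo samples and 1 Aged Bleo sample (p = 0.0476 for Aged Sham against Young Sham, exact test).

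Other upstream Hif1a regions were called more often after bleomycin. At 131.6 kb upstream (chr12:73769538-73769833) a peak was present in 4 of 4 Young Bleo and 1 of 5 Young Sham samples (Fisher's exact p = 0.0476), with 0 of 4 in Aged Sham and 2 of 5 in Aged Bleo. At 121.6 kb upstream (chr12:73779271-73780168) the counts were 3 Young Bleo, 0 Young Sham, 1 Aged Sham and 2 Aged Bleo samples (p = 0.0476, exact test). The 3 Young Bleo samples with that peak were those on lane 7, and the Young Bleo sample on lane 8, the lane of Young Sham, had none. At 91.0 kb upstream (chr12:73810005-73810694) all 4 Young Bleo and 4 of 5 Aged Bleo samples had a peak, against 2 of 5 Young Sham and 0 of 4 Aged Sham samples. Aged Bleo differed from Aged Sham there with p = 0.0476 by the exact test. Apart from the loss in Aged Sham at 146.4 kb, which passed without any single sample, leaving out most single samples of the groups compared took these p values to 0.107 or 0.143.

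The 1 upstream Hif1a region with a peak in all samples, 110.5 kb upstream and intergenic (chr12:73790504-73791136), had percentiles of 13, 5.9, 2.8, 6.2 and 3.8 in Young Sham. They were 37.6, 38.2, 46.2 and 11.7 in Young Bleo, 6.2, 11.7, 14.6 and 27.2 in Aged Sham, and 36.2, 36.5, 3.1, 26.2 and 22.5 in Aged Bleo. Young Bleo 1 to 3, on lane 7, were above all Young Sham samples, while Young Bleo 4, on lane 8, was within their range. The difference between Young Bleo and Young Sham, 27.1 ± 7.04 points, missed the threshold (limma adjusted p = 0.0507). When the caller's −log10 p was ranked instead of fold enrichment, it passed (29.5 ± 8.02 points, limma adjusted p = 0.0279). Aged Bleo against Young Sham passed by those ranks as well (23.6 ± 7.56 points, adjusted p = 0.0329), though not by fold enrichment (adjusted p = 0.0834).

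Hif3a (chr7:17030993-17062427, minus strand) had 4 regions and none held an annotated TSS. The strongest, intronic and 2.2 kb from the nearest TSS (chr7:17059986-17060394), had percentiles of 20.7, 16.7, 16.4, 14.9 and 11.3 in Young Sham, 17.9, 26.2, 18.9 and 16.9 in Young Bleo, 19.6, 3.8, 7.4 and 8.1 in Aged Sham, and 12.4, 17.4, 6.3, 14 and 10.7 in Aged Bleo. The groups overlapped and no comparison passed. The region nearest to a TSS, intronic and 0.5 kb from it (chr7:17056048-17056340), had a peak in 2 of 5 Young Sham, 4 of 4 Young Bleo, 2 of 4 Aged Sham and 3 of 5 Aged Bleo samples, and no comparison of these counts passed.

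Arnt (chr3:95434367-95497240), the shared β subunit, had 1 region, at its TSS (chr3:95434069-95434770), and this was the strongest of all 25 by median percentile (90.1). Percentiles were 83.0, 87.9, 93.8, 90.4 and 87.2 in Young Sham, 90.9, 91.8, 91.3 and 87.9 in Young Bleo, 87.2, 84.6, 94.2 and 90.1 in Aged Sham, and 98.1, 90, 89.9, 89.8 and 93.0 in Aged Bleo. All groups overlapped. Against Young Sham, Aged Bleo differed by 3.70 ± 2.41 points, Young Bleo by 2.02 ± 2.56 and Aged Sham by 0.571 ± 2.56, and none passed by fold enrichment. By ranks of −log10 p the Aged Bleo difference passed (7.11 ± 2.1 points, limma adjusted p = 0.0225).

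**Figure D4:**
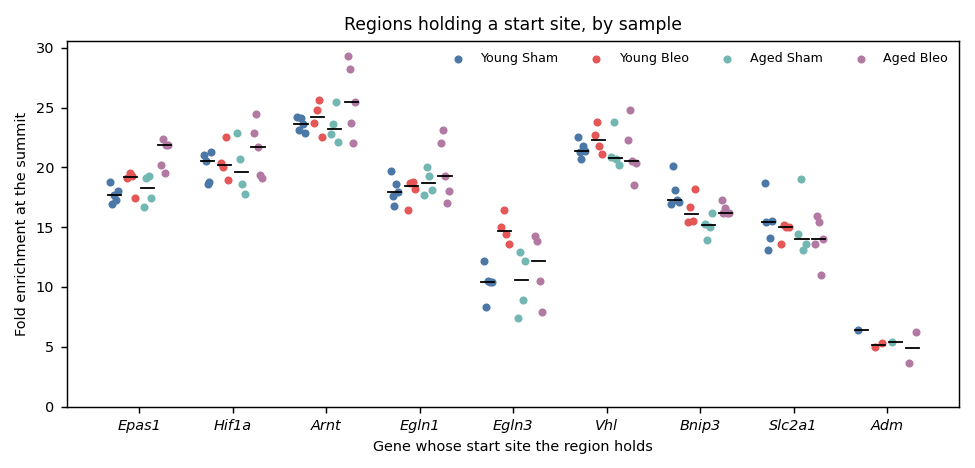
Fold enrichment at the summit of the region that holds a TSS (vertical axis) for 9 of the 10 genes, 1 point per sample with a peak, coloured by group, with a bar at the group median. Fold enrichment is not scaled between lists. Egln3 in Young Bleo lies at 13.6 to 16.4, above the Young Sham values of 8.3 to 12.2, and Adm has a peak in 6 samples only.

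Egln1 (chr8:124908587-124949254, minus strand) encodes PHD2, the main oxygen sensor of the pathway. Its single region, at the TSS (chr8:124948879-124949844), was stronger in Aged Bleo than in Young Sham. Percentiles were 64.6, 62.2, 64.3, 69.7 and 67.8 in Young Sham, 58.8, 65.9, 63.4 and 69.5 in Young Bleo, 67.3, 69.9, 75.3 and 73.2 in Aged Sham, and 80.6, 73.4, 74.5, 75.0 and 70.4 in Aged Bleo. Every Aged Bleo sample was above every Young Sham sample, and the difference was 9.05 ± 2.49 points (limma adjusted p = 0.0306). Without 1 of Young Sham replicates 1, 2 and 3 or Aged Bleo replicates 1 and 4 the adjusted p lay between 0.0526 and 0.0789. Aged Sham exceeded Young Sham by 5.70 ± 2.64 points (adjusted p = 0.305) and Young Bleo differed from it by -1.33 ± 2.64 points (adjusted p = 0.873). Bases before the Egln1 TSS (chr8:124949255-124949504, shown on the minus strand, that of the gene) hold 1 ACGTG and 1 GCGTG.
Egln1 upstream: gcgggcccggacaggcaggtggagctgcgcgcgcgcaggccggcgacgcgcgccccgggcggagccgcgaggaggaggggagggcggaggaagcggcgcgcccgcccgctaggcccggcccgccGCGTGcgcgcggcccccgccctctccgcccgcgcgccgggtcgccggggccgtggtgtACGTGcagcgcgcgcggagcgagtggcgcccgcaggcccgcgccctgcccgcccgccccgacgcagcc

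Egln3 (chr12:54178981-54203874, minus strand) encodes PHD3. By ranks of fold enrichment it was the only one of the 10 genes with regions whose strength passed the test in Young Bleo against Young Sham. It had 10 regions, of which 3 lay in the gene body and 4 in introns of the distant gene Npas3, up to 377.7 kb downstream. In all samples 3 had a peak, and each of these was stronger in Young Bleo than in Young Sham. An intronic region 15.9 kb into the gene (chr12:54187634-54188296) had percentiles of 8.3, 17, 14.6, 19.2 and 14.7 in Young Sham, 35, 33.3, 36.1 and 29.6 in Young Bleo, 19.6, 29.0, 18.0 and 38.7 in Aged Sham, and 40.7, 35.5, 43.7, 29.0 and 39.0 in Aged Bleo. All Young Bleo and Aged Bleo samples were above all Young Sham samples, and Aged Sham overlapped the other groups. Young Bleo exceeded Young Sham by 18.7 ± 3.92 points (limma adjusted p = 0.019) and Aged Bleo exceeded it by 22.9 ± 3.70 points (adjusted p = 0.00237). Aged Sham (11.6 ± 3.92 points, adjusted p = 0.157) did not pass.

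A second intronic region, 11.7 kb into Egln3 (chr12:54191888-54192385), had percentiles of 8.8, 19.4, 18.6, 16.1 and 35.3 in Young Sham, 41.1, 38.4, 42.8 and 47.2 in Young Bleo, 16.7, 28.4, 15.2 and 30.2 in Aged Sham, and 43.7, 38.0, 24.7, 25.3 and 34.1 in Aged Bleo. Young Bleo lay above all Young Sham and Aged Sham samples, and Aged Bleo overlapped Young Sham through Young Sham 5. The difference between Young Bleo and Young Sham was 22.8 ± 5.07 points (limma adjusted p = 0.0263), and that of Aged Bleo, 13.5 ± 4.78 points, did not pass (adjusted p = 0.0808). By ranks of −log10 p the Aged Bleo difference passed (29.5 ± 9.07 points, limma adjusted p = 0.0271). The remaining region lies past the end of the gene, 41.0 kb from the TSS and intergenic (chr12:54162528-54163220). Its percentiles were 5.5, 8.9, 12.6, 9.4 and 17.1 in Young Sham, 57.1, 63.4, 56.4 and 45.9 in Young Bleo, 38.4, 37.2, 13.6 and 58.1 in Aged Sham, and 73.7, 48.5, 29.1, 8.0 and 7.8 in Aged Bleo. Young Bleo was above Young Sham by 45.0 ± 11.1 points without overlap (limma adjusted p = 0.0418), and the aged groups spread over the ranges of both. Aged Bleo and Aged Sham differed by -3.42 ± 11.1 points there, and the difference of the bleomycin effect between ages, -48.4 ± 15.8 points, did not pass (limma adjusted p = 0.382).

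Windows of 200 bases around the summits of the 3 Egln3 regions are shown on the plus strand because these regions rose in Young Bleo.
Egln3 41.0 kb region (chr12:54162873-54163072): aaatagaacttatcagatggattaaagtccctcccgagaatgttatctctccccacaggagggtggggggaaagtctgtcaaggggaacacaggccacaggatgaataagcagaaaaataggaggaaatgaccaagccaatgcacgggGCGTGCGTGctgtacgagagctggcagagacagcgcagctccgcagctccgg
Egln3 15.9 kb region (chr12:54187849-54188048): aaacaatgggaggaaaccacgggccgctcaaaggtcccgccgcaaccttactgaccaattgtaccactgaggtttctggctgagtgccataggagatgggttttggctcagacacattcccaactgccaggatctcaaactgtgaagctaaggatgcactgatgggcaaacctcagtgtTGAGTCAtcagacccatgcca
Egln3 11.7 kb region (chr12:54192012-54192211): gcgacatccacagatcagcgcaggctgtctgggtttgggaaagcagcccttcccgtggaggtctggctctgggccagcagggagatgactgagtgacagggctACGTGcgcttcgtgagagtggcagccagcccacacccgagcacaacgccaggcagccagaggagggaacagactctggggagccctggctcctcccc
The 41.0 kb window holds 2 overlapping copies of GCGTG, the 11.7 kb window 1 ACGTG, and the 15.9 kb window 1 AP-1 site and neither HIF core.

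The number of fragments behind the Egln3 peaks differed more than the fold enrichment. At the summit 15.9 kb into the gene 35 to 52 fragments were counted in Young Sham and 102 to 174 in Young Bleo, while the number expected from the surroundings was 3.02 to 4.40 and 7.97 to 12.3. At 11.7 kb the fragments were 33 to 56 and 123 to 184, with 2.74 to 4.33 and 7.71 to 12.2 expected. Peaks and surroundings were thus both higher in Young Bleo. These fragments are not scaled for the depth of the library, which is unknown. Aged Bleo ranged from 23 to 199 fragments at 15.9 kb. On lane 8, which holds all Young Sham samples, Young Bleo 4 had percentiles of 45.9, 29.6 and 47.2 at 41.0, 15.9 and 11.7 kb, above each Young Sham sample. On lane 6 the Aged Sham sample (58.1, 38.7 and 30.2) lay within the Aged Bleo range at all 3 regions, and on lane 7 Young Bleo 1 to 3 were above Aged Sham 1 to 3 at each (lowest Young Bleo 56.4, 33.3 and 38.4, highest Aged Sham 38.4, 29.0 and 28.4).

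The Egln3 calls of Young Bleo against Young Sham depended on single samples to different degrees. At 41.0 kb the adjusted p was 0.0523 to 0.124 without any 1 of the 5 Young Sham or 4 Young Bleo samples. At 11.7 kb it was 0.0522 to 0.0668 without any 1 of these samples except Young Sham 5. At 15.9 kb it was 0.0547 to 0.0626 without Young Bleo 1, 2 or 3 and 0.027 to 0.048 without any other 1 of these samples. The size of the difference without 1 sample stayed at 42.4 points or more at 41.0 kb. The Aged Bleo call at 15.9 kb passed without any single sample.

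The Egln3 TSS region (chr12:54203205-54204088) had a peak in 17 of 18 samples, missing in Aged Bleo 4. Fold enrichments were 12.2, 8.3, 10.5, 10.4 and 10.4 in Young Sham, 15, 16.4, 14.4 and 13.6 in Young Bleo, 7.4, 12.9, 8.9 and 12.2 in Aged Sham, and 14.3, 13.8, 10.5 and 7.9 in the 4 Aged Bleo samples with a peak. Young Bleo lay above Young Sham and Aged Sham without overlap. When all regions found in 16 or more samples were ranked, Young Bleo exceeded Young Sham by 24.9 ± 8.48 points, which did not pass (limma adjusted p = 0.121). The other 6 Egln3 regions had a peak in 2 to 15 samples, and none differed between groups by Fisher's exact test.

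**Figure D5:**
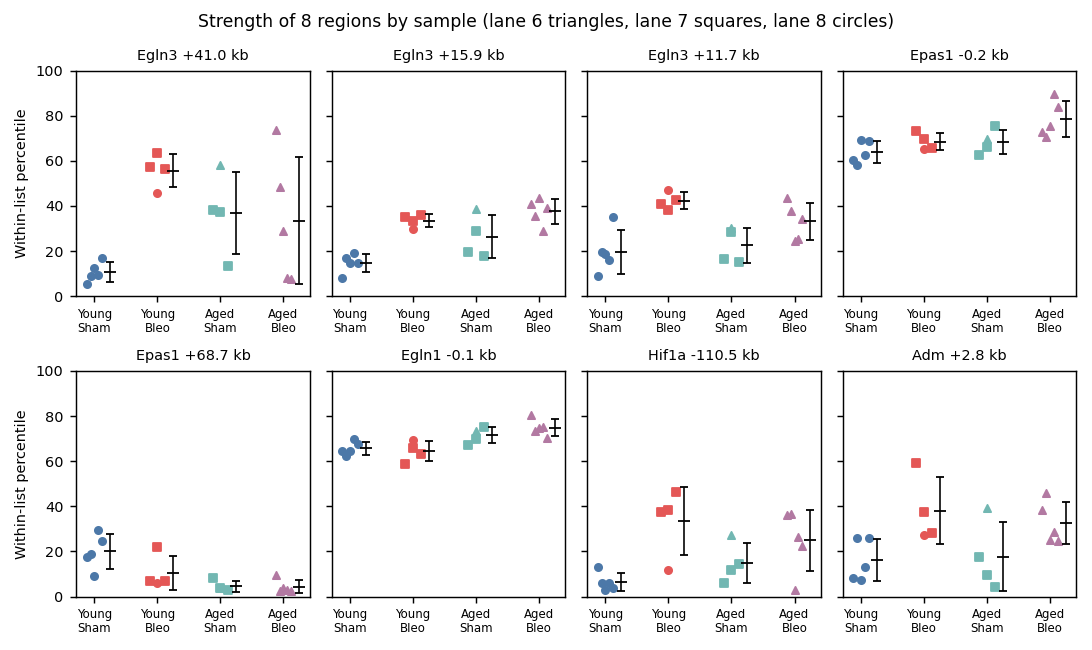
Within-list percentile (vertical axis, 0 to 100) of 8 regions, named by gene and distance from its TSS, 1 point per sample with the shape giving the lane, and the group mean with its SD as a bar beside the points. The 3 Egln3 regions lie higher in Young Bleo than in Young Sham, and the Epas1 region at 68.7 kb lies lowest in both aged groups.

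Vhl (chr6:113623994-113631634) encodes the recognition subunit of the ligase that degrades hydroxylated HIF-α. Its single region, at the TSS (chr6:113623756-113624458), had percentiles of 76.9, 81.4, 82.9, 84.5 and 82.0 in Young Sham, 87.7, 88.7, 78 and 82.4 in Young Bleo, 80.7, 85.3, 80.4 and 83.0 in Aged Sham, and 81.7, 79.9, 79.1, 80.0 and 79.1 in Aged Bleo. All groups overlapped. No difference from Young Sham was larger than 2.65 ± 2.28 points (Young Bleo, limma adjusted p = 0.62).

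Bnip3 (chr7:138890836-138909506, minus strand) had 3 regions. The TSS region (chr7:138909260-138909978) had percentiles of 49.9, 75.9, 71.1, 62.4 and 64.0 in Young Sham, 53.1, 54.3, 44.1 and 69.4 in Young Bleo, 55.8, 38.1, 56.2 and 62.8 in Aged Sham, and 58.5, 41.2, 62.4, 72 and 63.2 in Aged Bleo. The samples of every group spread over 20 points or more, the groups overlapped, and the largest difference, Aged Sham against Young Sham, was -11.4 ± 6.73 points (adjusted p = 0.443). An intergenic region 10019 bp upstream (chr7:138919111-138919939) was nearly as strong, with a median percentile of 58.2 and a range of 36.2 to 65.0 over all samples, and did not differ between groups beyond the spread between samples. Another region, intronic and 2.3 kb from the TSS, had a peak in 16 of 18 samples. The 250 bases before the Bnip3 TSS (chr7:138909507-138909756, shown on the minus strand) hold 2 matches to ACGTG and 3 to GCGTG and are printed as the densest set of HIF cores among these promoters. The palindrome in them counts as an ACGTG on each strand.
Bnip3 upstream: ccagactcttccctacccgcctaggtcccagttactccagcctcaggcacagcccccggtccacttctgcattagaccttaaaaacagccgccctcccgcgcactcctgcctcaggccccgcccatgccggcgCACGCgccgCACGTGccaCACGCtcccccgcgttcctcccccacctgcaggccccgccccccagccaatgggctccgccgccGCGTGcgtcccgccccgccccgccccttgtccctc

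Slc2a1 (chr4:119108745-119137330) had 5 regions. The TSS region (chr4:119108490-119109437) had percentiles of 59.4, 49.3, 41.6, 43.2 and 55.5 in Young Sham, 42.4, 45.6, 41.3 and 52.2 in Young Bleo, 50.9, 65.3, 46.1 and 46.8 in Aged Sham, and 38.0, 39.6, 56.1, 48.7 and 52.9 in Aged Bleo, with all groups overlapping and no comparison passing. An intronic region 18.6 kb into the gene (chr4:119127161-119127627) had a peak in 3 of 4 Young Bleo and 0 of 5 Young Sham samples (p = 0.0476, Fisher's exact test), 1 of 4 Aged Sham and 2 of 5 Aged Bleo samples. The 3 Young Bleo samples were those on lane 7, the peak rested on a median of 17.5 fragments, and without any 1 Young Sham sample or any 1 of those 3 samples p was 0.107 or 0.143. A region 12.7 kb into the gene had a peak in 17 samples, and an intronic region 17.4 kb into the gene and one 2.8 kb upstream were each found in 2 samples, all Aged Bleo.

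Adm (chr7:110627657-110629820) was the only one of the 10 genes with a TSS region found in a minority of samples. That region (chr7:110627467-110627827) had a peak in 1 of 5 Young Sham, 2 of 4 Young Bleo, 1 of 4 Aged Sham and 2 of 5 Aged Bleo samples, with fold enrichments of 3.58 to 6.38. The strongest Adm region lay 0.3 kb past the end of the gene, 2.8 kb from the TSS (chr7:110630148-110630711), within the noncoding gene Gm28863, and had a peak in all samples. Its percentiles were 8.1, 25.9, 7.5, 12.9 and 26 in Young Sham, 59.2, 37.3, 28.3 and 27.2 in Young Bleo, 17.4, 9.7, 4.3 and 39.4 in Aged Sham, and 38.3, 45.7, 25.1, 28.8 and 24.7 in Aged Bleo. Every Young Bleo sample was above every Young Sham sample, but the spread was wide and the difference of 21.9 ± 7.66 points did not pass (limma adjusted p = 0.144). The Aged Bleo difference from Young Sham, 16.5 ± 7.23 points, did not pass either (adjusted p = 0.152). By ranks of −log10 p the Aged Bleo difference passed (24.1 ± 8.34 points, limma adjusted p = 0.0453). Its summit window (chr7:110630336-110630535, plus strand) holds 2 copies of ACGTG and 1 of GCGTG.
Adm 2.8 kb region: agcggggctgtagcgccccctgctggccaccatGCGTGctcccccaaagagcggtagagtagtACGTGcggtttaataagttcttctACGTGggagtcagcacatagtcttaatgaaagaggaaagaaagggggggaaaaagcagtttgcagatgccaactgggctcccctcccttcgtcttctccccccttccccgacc

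An intergenic region 23.8 kb from the Adm TSS (chr7:110651176-110651720) had a peak in 4 of 4 Young Bleo, 1 of 5 Young Sham, 3 of 4 Aged Sham and 3 of 5 Aged Bleo samples (p = 0.0476 for Young Bleo against Young Sham, Fisher's exact test). The Young Bleo peaks had fold enrichments of 13.7, 14.9, 7.1 and 5.1, the Young Sham peak 5.3. Without any 1 of the Young Bleo samples or of Young Sham replicates 2 to 5 p was 0.143. The region at 61.9 kb (chr7:110689291-110689749) had a peak in all samples, with mean percentiles of 11.6 ± 6.58 (SD, n = 5) in Young Sham, 19.8 ± 9.61 (n = 4) in Young Bleo, 10.4 ± 7.63 (n = 4) in Aged Sham and 22.6 ± 9.04 (n = 5) in Aged Bleo, and no comparison passed by fold enrichment. By ranks of −log10 p Aged Bleo against Young Sham passed (10.7 ± 3.38 points, SE, limma adjusted p = 0.0305).

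Peaks were also counted per gene. Arnt, Egln1 and Vhl had 1 in every sample. Epas1 had a peak in 22, 19, 20, 20 and 18 of its regions in Young Sham and in 14, 17, 11 and 16 in Aged Sham, without overlap (two-sided exact permutation p = 0.00794). Hif1a had 8, 6, 5, 5 and 4 against 2, 3, 3 and 3, again without overlap (exact p = 0.0159), and Egln3 had a mean of 7 ± 1 (SD, n = 5) against 5.25 ± 0.50 (n = 4, exact permutation p = 0.0476). These 3 of 10 genes passed at an unadjusted p of at most 0.05 in Aged Sham against Young Sham, where 9.65% of 17229 genes did. Epas1, Hif1a and Egln3 had 27, 10 and 10 regions, against a median of 2 over all these genes. That percentage is thus not one of genes with as many regions. Aged Sham also had a peak in fewer of all consensus regions (mean 59.2% against 71.9% in Young Sham), so the lower counts were not particular to these genes. In Young Bleo against Young Sham Slc2a1 (2.75 ± 0.50 against 2.00 ± 0) and Adm (4.00 ± 0 against 2.60 ± 1.34) passed, each with exact permutation p = 0.0476, and 7.36% of all genes did. None of the 10 passed in Aged Bleo against Young Sham or against Aged Sham, where 4.79% and 1.11% of genes passed. No gene passed after Benjamini-Hochberg adjustment of the exact permutation p in any of the 4 comparisons.

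Among 44 other genes of the pathway, from glycolytic enzymes to the VHL ligase, 43 had a region, 158 regions in all, of which 64 were tested for strength. In Young Bleo against Young Sham 1 region was stronger and 1 weaker, where 1.18% and 1.57% of all tested regions were. Aged Bleo had 4 stronger and 2 weaker regions than Young Sham, where 5.75% and 4.81% of all tested regions passed, so these counts are near the background. Among the stronger regions were the promoters of Rbx1 (mean percentile 84.5 ± 4.55 against 66.8 ± 2.46, SD, n = 5 in each group), which encodes a subunit of the VHL ligase, the histone demethylase Kdm3a (61.2 ± 7.56 against 45.0 ± 4.98) and the glycolytic enzyme Aldoa (79.0 ± 6.60 against 67.5 ± 4.51). A region downstream of Ddit4, a stress-induced inhibitor of mTOR, was weaker in both comparisons (4.72 ± 1.59 and 7.09 ± 2.84 against 15.4 ± 4.09), and the promoter of Cul2, the scaffold of the VHL ligase, was weaker in Aged Bleo (34.3 ± 11.6 against 59.0 ± 8.71). In Aged Sham against Young Sham and in Aged Bleo against Aged Sham 0 of the 64 passed. By presence 7 of the 158 regions were called more often and 2 less often in Young Bleo than in Young Sham at an unadjusted Fisher's exact p of at most 0.05, against 3.98% and 1.96% of all regions. In Aged Sham 2 were called more often and 6 less often than in Young Sham, against 0.264% and 4.90%. Aged Bleo had 0 more often and 4 less often than Young Sham (0.201% and 3.01% of all regions), and 0 more often and 2 less often than Aged Sham (0.475% and 0.410%).

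Sequence was searched for ACGTG or GCGTG on both strands in 200 bases around the strongest summit of each region. A core was found in 27 of the 68 windows (39.7%) and in 33.3% of all 47338 windows, and outside promoters in 22 of 63 (34.9%) and 27.4%. CAGGAAG was found in 14 of the 68 windows (20.6%) and in 9449 of all windows, and TGACTCA in 8.82% and 6.60%. The 250 bases before the TSS were available for 9 of the 10 genes, Epas1 being the exception, and 8 of these 9 held a HIF core, all but Vhl, against 38.6% of 32851 promoters. Among the 6 of them whose TSS lay in a region with a peak in all samples, 5 held one, against 62.0% of the 10484 such promoters. Counted separately, whether or not the other core was present, ACGTG was found in 4 of these 6 and in 23.6% of such promoters. GCGTG was found in 4 of the 6 and in 50.8%. These are matches of letters in the reference genome, not binding sites, and the mice were of another strain than the reference.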

How the data were processed

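Omni-ATAC-seq of sorted lung ECs gave 18 lists of peaks, 1 per mouse. The authors ran the HiChIP pipeline (BWA, mm10, removal of duplicates), and MACS2 called the peaks of every sample separately (FDR of 1%). No shift of the Tn5 cut sites is given in the sources used here, which can move a summit by a few bases. Fold enrichment, as deposited, is a ratio of summit fragments over those expected locally in the same library, with 1 added to each. Also deposited were −log10 p and −log10 q (p-values and q-values of the caller) and a score, which was not used. They refer to 1 library as well, so none is scaled between lists. The authors' differential analysis rested on reads and was not repeated.

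Of the peaks, 19 mitochondrial ones were left out. Regions were annotated with 45755 RefSeq transcripts of GRCm38.p6, the sequence of mm10. The 10 genes, the pathway and marker lists and the tests were chosen with earlier results of these data known. Presence was tested by Fisher's exact test (two-sided), called regions per gene by an exact permutation test (two-sided), and within-list percentiles with limma 3.58.1 (R 4.3.3) fitted to all 4 groups, each with Benjamini-Hochberg adjustment over all regions or genes. Fragments at a summit were solved from fold enrichment and −log10 p, for peaks with a −log10 p up to 250.0, and came out whole within 0.05 for at least 99.989% of these. The depth of a library in reads is unknown, and few fragments per peak limit the precision. The mice are separate animals. The regions described singly are those at a TSS, the region of highest median percentile of each gene and those that passed a test, where values or, for presence, counts of samples are given. Others are summarised. Further regions were named after their values were seen: at 110.5 kb from the TSS of Hif1a, 0.5 kb of Hif3a, 10019 bp and 2.3 kb of Bnip3, 12.7, 17.4 and 2.8 kb of Slc2a1, and 61.9 kb of Adm. The scripts were tested on simulated data. Alternatives were peaks with −log10 q or fold enrichment of at least 5, the same number of peaks per list, regions in at least 3 or 16 samples, peaks covering 50% of a region, 500 bp regions on summits, ranks of −log10 p, exact permutation tests, each sample left out in turn, and a replicate block. Values of 1 gene of the pathway list are not reported here.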

Additional observations from a re-analysis of the deposited data

Results flagged for a closer look

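Of 100 groups of percentiles tested (25 regions in 4 groups), 7 held 1 sample far from the others of its group, where chance flags about 5%. At Epas1, 21.6 kb upstream, Young Sham 2 was at 60.7 against 74.9 to 78.8 in the others. At 48.9 kb into Epas1, Aged Sham 2 was at 8.2 against 0.9 to 1.5 and Aged Bleo 4 at 6.6 against 0.4 to 2.0. At 60.7 kb, Aged Bleo 4 was at 12.1 against 1.1 to 2.5. At 68.7 kb, Young Bleo 2 was at 21.8 against 6.0 to 7.1, within the Young Sham range, and Aged Bleo 1 at 9.4 against 2.5 to 4.0. At the Hif1a TSS region, Aged Sham 1 was at 87.5 against 71.5 to 73.4. Aged Bleo 4 has the shortest list, and the part of list length in its values was not tested. The difference of the bleomycin effect between ages passed at none of the 25 regions.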

How the results depend on the processing

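Many calls changed when 1 sample was left out or lists were made equally long. The loss at 146.4 kb upstream of Hif1a in Aged Sham, and in Aged Bleo against Young Sham the regions in introns of Egln3 and Epas1, passed without any single sample. With equal lists the Aged Bleo calls at Egln3 and at the Epas1 and Egln1 TSSs passed (adjusted p = 0.00595, 0.0206 and 0.0288). Fewer regions had a peak in every list there, and the calls at 68.7 kb of Epas1 (also with fold enrichment of at least 5) and 41.0 kb of Egln3 could not be tested. By presence, the count in Aged Sham against Young Sham (4) was 2 with the same number of peaks per list. In Young Bleo against Young Sham (4) it was 7 with −log10 q of at least 5, 8 with fold enrichment of at least 5 and 6, at other regions, with equal lists. Shares of all regions that passed are given for the main setting only, so the counts under alternatives have no background beside them. In Aged Bleo against Young Sham (0) it was 1 with fold enrichment of at least 5, 1 with equal lists and 2 with peaks covering 50% of the region. In Aged Bleo against Aged Sham (2) it was 1 with equal lists and 0 with 50% coverage. Leaving out 1 sample gave 1 to 4, 0 to 2, 0 to 4 and 0 to 2 calls in this order. With the replicate block no presence call remained in the 3 comparisons that had any (0 each), where 4 pairs cannot give a p below 0.125.

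By strength, the count in Young Bleo against Young Sham (3) was 1 with the replicate block (at 54191888 on chromosome 12, in Egln3), 5 with ranks of −log10 p, 1 with equal lists and 0 by the exact permutation test, and 0 to 2 without 1 sample. Besides Egln3, ranks of −log10 p called the region 110.5 kb upstream of Hif1a stronger. They called the one 201.9 kb upstream of Epas1 weaker (-22.2 ± 6.18 points, SE, limma adjusted p = 0.0311). In Aged Bleo against Young Sham (4) it was 9 with ranks of −log10 p, 0 by the exact permutation test and 2 to 5 without 1 sample. Those that passed only by ranks of −log10 p were the Arnt TSS region and the regions at 110.5 kb of Hif1a, 11.7 kb of Egln3, and 2.8 and 61.9 kb of Adm, all stronger. The share of all regions that passed with ranks of −log10 p is not given here. In Aged Sham against Young Sham (0) it was 1 with ranks of −log10 p (the intronic Epas1 region weaker in Aged Bleo) and 0 to 1 without 1 sample, and in Aged Bleo against Aged Sham (0) it was 2 with ranks of −log10 p, at the Epas1 TSS and 60.7 kb into Epas1. The causes were not tested. Of 270 values of single calls under an alternative, 142 stayed past the threshold, 128 did not, and 0 changed direction. The 128 include every strength call under the exact permutation test. Its smallest adjusted p of any region was 0.132 in Young Bleo and 0.0997 in Aged Bleo, each against Young Sham, so no call could stay there. Same-numbered samples are not from the same animal, and the correlation of their deviations was −0.193 to 0.335, over 0.1 in 1 of 4 pairs of Aged Bleo with Aged Sham, 2 of 5 of Aged Bleo with Young Sham and 0 of 4 in the other comparisons. The labels give no link between them beyond the number, and these correlations cannot show whether one exists.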
